A study of Mus musculus with 16 samples.

Results

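The genes described here are 8 members of the hnRNP A/B, C and D group, Hnrnpa3, Hnrnpa0, Hnrnpa1, Hnrnpa2b1, Hnrnpab, Hnrnpd, Hnrnpdl and Hnrnpc, out of 55401 genes in the deposited count table. They were taken by gene symbol from that table, and their peaks by Ensembl gene ID from 3 deposited peak lists. The group was chosen by the higher level of Hnrnpa3 in the Ythdf2-KO input libraries, so the levels of all 8 in that comparison are given as a description and carry no p-value. The cells were MC38, a mouse colon adenocarcinoma line, in 2 forms: cells labelled Ythdf2-KO (titles tagged gY2) and cells labelled WT (titles tagged gNC). Both were grown in DMEM with serum and antibiotics, and the labels do not say whether the KO cells were 1 clone or a pool. Gene counts cover 3 Ythdf2-KO and 3 WT input libraries, made from polyadenylated RNA broken into fragments. The peak lists cover RNA fragments recovered by an antibody to N6-methyladenosine (m6A) in Ythdf2-KO cells and in WT cells (3 libraries each), and RNA pulled down with an antibody against YTHDF2 in cells labelled WT (RIP, 2 libraries).

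The hnRNP proteins coat nascent transcripts in the nucleus and act in splicing, mRNA export, microRNA processing and mRNA decay. Members of the A/B branch carry a pair of RNA recognition motifs followed by a glycine-rich tail, and several bind overlapping sets of sites, so one member can partly stand in for another. YTHDF2 binds m6A in the cytoplasm and recruits the machinery that shortens poly(A) tails, and HNRNPA2B1 and HNRNPC have themselves been described as proteins whose binding to RNA depends on m6A.

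Total counts were 48736352 to 50959555 in the Ythdf2-KO libraries and 45441281 to 50885512 in the WT libraries, so that 3 counts correspond to 0.0589 to 0.066 CPM, the unit of counts scaled to a common library total used below. In edgeR's quasi-likelihood test of 18969 genes, 568 were higher and 293 lower in Ythdf2-KO cells at an adjusted p below 0.05. With upper quartile factors in place of TMM factors, the split was 348 higher and 395 lower. On the first principal component Ythdf2-KO replicate 1 (-10.4) lay between Ythdf2-KO replicates 2 and 3 (64.1 and 63.2) and the WT libraries (-39.2 to -38.6). On that component it was nearer to the WT libraries. The whole-gene level of Ythdf2 was 67.9, 59.8 and 61.6 CPM in Ythdf2-KO cells and 55.6, 68.6 and 59.7 CPM in WT cells (edgeR adjusted p = 0.809 for a log2 fold change of 0.04, SE 0.10). The count spans all exons, edited or not, and is therefore no test of the knockout, so the directions below rest on the labels. Of 8 markers of colon epithelium 2 passed the expression filter, Epcam and Krt18 were at 0 in all 6 libraries, and the summed level of the list was 0.801 to 1.06 CPM in Ythdf2-KO cells and 1.09 to 1.28 CPM in WT cells, so the epithelial markers of the labelled tissue were near 0. Of 4 leukocyte markers none passed the filter, and their summed level was 0.041 to 0.373 CPM in Ythdf2-KO and 0 to 0.301 CPM in WT libraries. The 3 endothelial markers summed to 1.9 to 2.7 CPM in Ythdf2-KO and 1.65 to 2 CPM in WT libraries, and none passed the test (1 at an unadjusted p below 0.05, and 0 by DESeq2). The 3 fibroblast markers summed to 197 to 229 CPM in Ythdf2-KO and 224 to 240 CPM in WT libraries, and 1 of them, the matrix proteoglycan gene Dcn, was lower (edgeR adjusted p = 0.0355 for a log2 fold change of -0.82, SE 0.15). The part of these other lists in the levels of the hnRNP genes was not tested.

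Hnrnpa3 is the member on which the comparison turns. It lies on chromosome 2 (GRCm38, 75659261 to 75669407, plus strand, ENSMUSG00000059005.13) and is the only one of the 8 with a YTHDF2 RIP peak. The following stretches of its coding transcript show what the antibodies recovered there, first the bases shared by the first m6A peak of both genotypes, then those shared by the second m6A peak of both genotypes and the second RIP peak, and last the first RIP peak. They are sense-strand sequences from the GENCODE M21 transcript ENSMUST00000111964 (GRCm38, plus strand), at chr2:75662692-75662900, chr2:75665241-75665301 and chr2:75662078-75662662, with introns left out of the first and the third. Capitals mark the m6A consensus known as DRACH (A, G or T, then A or G, then AC, then A, C or T), searched on the sense strand.
Hnrnpa3, both m6A lists, peak 1: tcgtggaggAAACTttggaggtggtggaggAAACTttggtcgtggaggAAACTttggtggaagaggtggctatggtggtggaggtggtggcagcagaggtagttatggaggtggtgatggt
Hnrnpa3, all 3 lists, m6A peak 2 and RIP peak 2: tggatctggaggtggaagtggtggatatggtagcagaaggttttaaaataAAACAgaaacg
Hnrnpa3, RIP peak 1: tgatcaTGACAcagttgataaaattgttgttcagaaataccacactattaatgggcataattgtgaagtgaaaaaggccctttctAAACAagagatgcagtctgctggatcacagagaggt

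The first and the third stretch are 121 bases each and lie wholly in coding sequence, and the first reads through the glycine-rich tail, with AAACT repeated 3 times. The second is 61 bases long and spans the stop codon, with 46 bases up to and including it and 15 after it. None of the 3 holds GGAC, the core of the most common m6A contexts, whereas the whole first WT m6A peak (271 bases) holds 1. Bases of the second peaks off this transcript were not searched for it. That core was present in 38.5% of 121-base windows and 21.7% of 61-base windows of the coding transcripts of tested genes, and some DRACH match in 90.4% and 69.8% of them, so neither the DRACH matches nor the lack of GGAC sets these stretches apart.

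Counts assigned to the Hnrnpa3 gene model were 2.75 times as high in Ythdf2-KO cells as in WT cells, and 1.34 times as high with its pseudogene models, described below, added to it. The level was 174.5, 184.6 and 163.3 CPM in the Ythdf2-KO libraries, against 68.4, 60.4 and 61.4 CPM in the WT libraries. The groups were far from overlapping, and the libraries of each group lay close together. In bulk RNA, more cells of a kind with the transcript and more of it per cell cannot be told apart. The log2 fold change was 1.46 (SE 0.08), which ranked 39 among 10421 genes with a mean of at least 10 CPM and 200 among all 18969 tested. On a scale where the mean of Ythdf2-KO replicates 2 and 3 is 100% and the WT mean is 0, Ythdf2-KO replicate 1 stood at 100.5% for Hnrnpa3, against a median of 68.1% over the 861 called genes. Of the 8 members, 1 passed the edgeR test in the higher direction and it was Hnrnpa3, which the choice of members fixes, against 2.99% of all tested genes called higher and 4.54% called in either direction. The call was lost when WT replicate 2 was left out (log2 fold change 1.43), where edgeR called 0 of 19733 genes (4011 at an unadjusted p below 0.05).

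**Figure D1:**
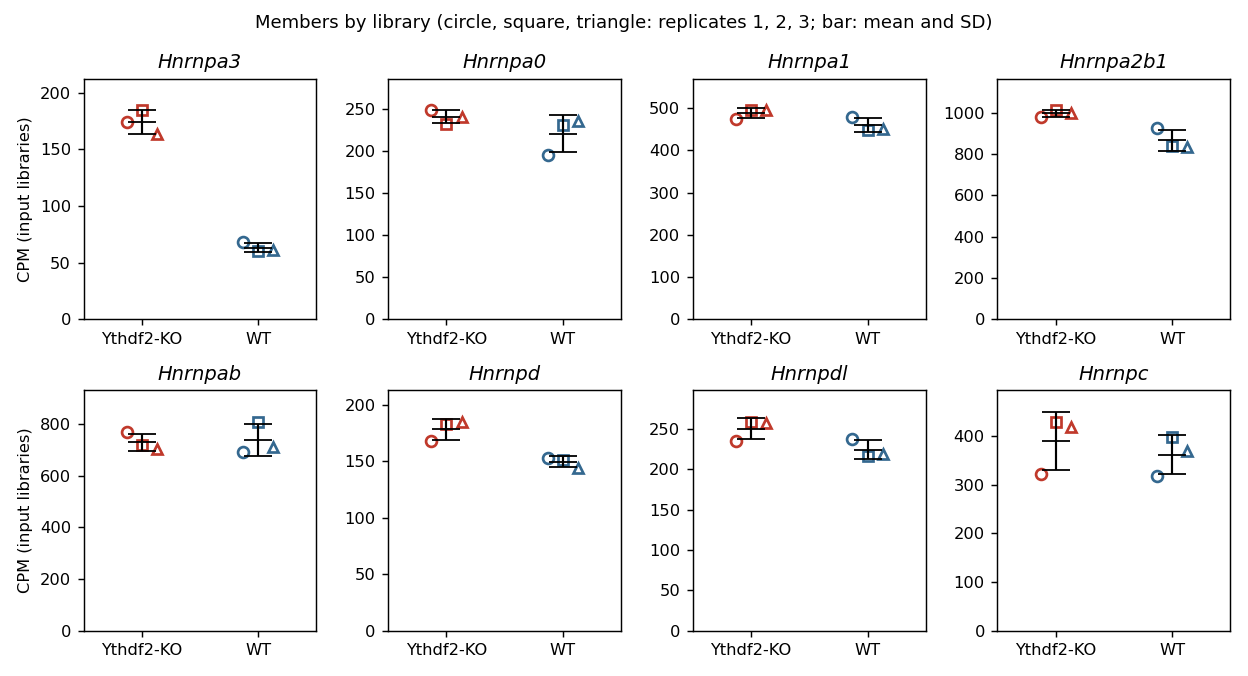
CPM of the 8 members (vertical axes, each starting at 0) in 3 Ythdf2-KO and 3 WT input libraries, with symbols for replicates 1 to 3 and a bar for the mean and SD. Hnrnpa3 lies at 163.3 to 184.6 CPM in Ythdf2-KO cells and at 60.4 to 68.4 CPM in WT cells, while the 7 other members differ little between the genotypes.

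Most counts on sequence like that of Hnrnpa3 were assigned to pseudogene models. In GENCODE M21, 37 pseudogene models, spread over 15 chromosomes, matched its coding transcript at 90% identity or more over at least 100 bases, and 36 of them are processed pseudogenes, that is, copies of the spliced mRNA. They held 840, 975 and 893 CPM in the Ythdf2-KO libraries, against 803, 718 and 698.5 CPM in the WT libraries. That was 82.8%, 84.1% and 84.5% of the combined counts of gene and pseudogenes in Ythdf2-KO cells, and 92.1%, 92.2% and 91.9% in WT cells. The gene itself received the smaller part of these counts in every library, and its own share was larger in each Ythdf2-KO library than in any WT library.

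The pseudogene models differed between genotypes far less than the gene. The one with the most counts, Gm5641 (ENSMUSG00000069014.4, chromosome 3, 54481438 to 54482925, plus strand), is identical to the Hnrnpa3 transcript over 1458 aligned bases. It measured 189.9, 217 and 204 CPM in Ythdf2-KO cells, against 176, 163 and 157 CPM in WT cells (log2 fold change 0.30, SE 0.08). Its groups did not overlap, with all Ythdf2-KO libraries higher. Of the 29 models tested, 27 had a log2 fold change above 0, the median was 0.27 and the range -0.54 to 0.44. None passed the edgeR test, and 10 did at an unadjusted p below 0.05, against 29.5% of all tested genes. DESeq2 called 6 higher and 0 lower, against 11.8% and 7.1% of all tested genes.

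Summed into 1 row with its pseudogene models, Hnrnpa3 measured 1015, 1160 and 1056 CPM in Ythdf2-KO cells, against 871, 778 and 759.6 CPM in WT cells. The groups did not overlap, and the fold change was 1.34 (log2 fold change 0.42, SE 0.08), a description like that of the gene, whose counts are in the sum. The sources used here do not say how reads that fit several places were counted. Of the 100-base windows of the coding transcript (1654 bases), 90.2% occur letter for letter in another annotated gene model. For the longest coding transcript of the gene (5150 bases), which ends in a longer 3′ UTR, the share was at least 27.5%. The search covered only models similar to the members' coding transcripts, so models that match only other bases of the longer transcript were not counted. The 2.75-fold difference belongs to the reads assigned to the gene, and the 1.34-fold difference to the reads assigned to it or to its pseudogene models. A protein-coding model with 98.3% identity over 1446 bases was not in the count table, so no reads of it are in the sum. The part of the assignment of reads in the first was not tested.

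**Figure D2:**
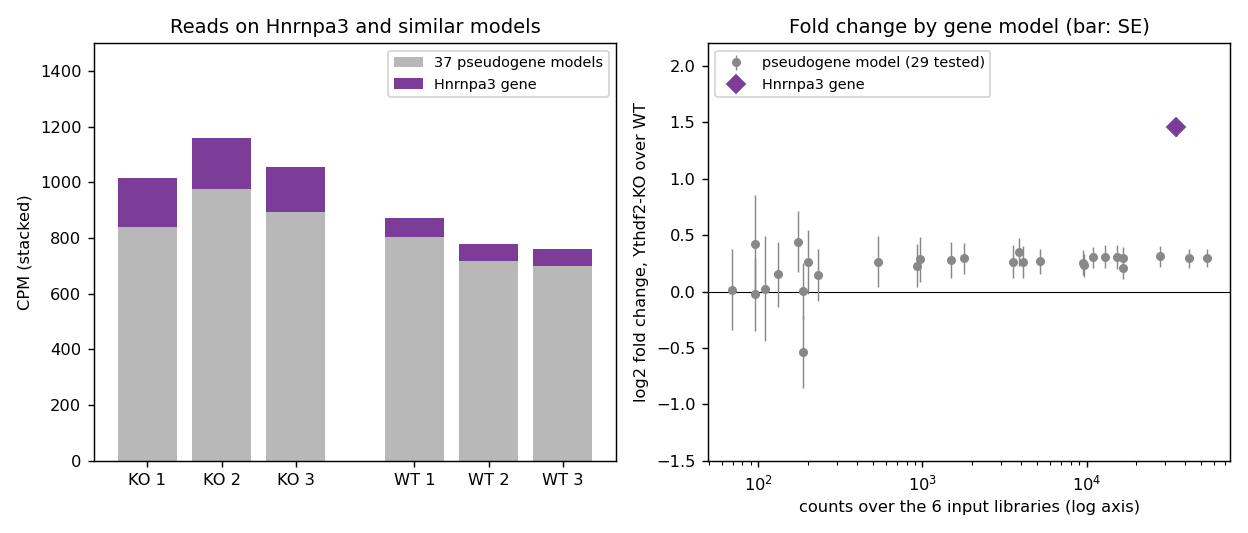
Left, stacked CPM of 37 pseudogene models (grey) and of the Hnrnpa3 gene (purple) in each Ythdf2-KO and WT input library. Right, log2 fold change of Ythdf2-KO over WT with its SE against the counts over the 6 input libraries (log axis) for the 29 pseudogene models tested and for Hnrnpa3, in which the gene stands at 1.46 and no pseudogene model above 0.44.

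The other members of the A/B branch showed small differences. Hnrnpa2b1 (ENSMUSG00000004980.16, chromosome 6, 51460932 to 51469894, minus strand), which encodes a protein of splicing, RNA transport and microRNA sorting, measured 981, 1012 and 997 CPM in Ythdf2-KO cells, against 926, 839 and 832 CPM in WT cells. The Ythdf2-KO libraries were all higher, but WT replicate 1 was close to them, and the log2 fold change was 0.20 (SE 0.07). Hnrnpa1 (ENSMUSG00000046434.16, chromosome 15, 103240432 to 103246692, plus strand), the best-studied splicing repressor of the family, measured 474.5, 495 and 495 CPM in Ythdf2-KO cells, against 479.5, 449 and 450.5 CPM in WT cells. WT replicate 1 lay above Ythdf2-KO replicate 1, so the groups overlapped, with a log2 fold change of 0.09 (SE 0.06).

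Hnrnpa0 (ENSMUSG00000007836.6, chromosome 13, 58125879 to 58128556, minus strand), an intronless member whose protein binds AU-rich elements of inflammatory mRNAs, measured 248, 232 and 241 CPM in Ythdf2-KO cells, against 195, 231 and 235 CPM in WT cells. The groups overlapped only in that WT replicate 3 lay above Ythdf2-KO replicate 2. The lowest library was WT replicate 1 (log2 fold change 0.13, SE 0.09, and 0.03 without that library). Hnrnpab (ENSMUSG00000020358.17, chromosome 11, 51600100 to 51606847, minus strand), which encodes a protein of mRNA transport and transcription, measured 767, 717 and 704 CPM in Ythdf2-KO cells, against 692, 808 and 711 CPM in WT cells. All Ythdf2-KO libraries lay between the lowest and the highest WT library, and the log2 fold change was -0.01 (SE 0.08).

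The D branch is known for binding AU-rich elements in 3′ UTRs. Hnrnpd (ENSMUSG00000000568.15, chromosome 5, 99955935 to 99978938, minus strand), which encodes the decay factor AUF1, measured 167.5, 182.5 and 185 CPM in Ythdf2-KO cells, against 153, 151 and 144 CPM in WT cells. The groups did not overlap, with all Ythdf2-KO libraries higher by a modest amount (log2 fold change 0.26, SE 0.07). Its neighbour and closest relative here, Hnrnpdl (ENSMUSG00000029328.15, chromosome 5, 100033577 to 100039664, minus strand), measured 235, 259 and 257.5 CPM in Ythdf2-KO cells, against 237, 216 and 219 CPM in WT cells. Ythdf2-KO replicate 1 was within the WT values, and the log2 fold change was 0.16 (SE 0.08).

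Hnrnpc (ENSMUSG00000060373.15, chromosome 14, 52073377 to 52104028, minus strand) encodes the U-tract binding protein of the core hnRNP particle and lies outside the A/B branch by sequence. It measured 322, 429 and 418 CPM in Ythdf2-KO cells, against 318, 397 and 370 CPM in WT cells. Replicate 1 was the lowest library of both groups, and the spread within each group was larger than the difference between them (log2 fold change 0.11, SE 0.13).

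Over the 8 members the median log2 fold change was 0.14, against -0.01 over all genes tested, and 7 of 8 were above 0. With upper quartile factors the same median was 0.06, again with 7 of 8 above 0. Groups did not overlap for 3 of the 8 (Hnrnpa3, Hnrnpa2b1 and Hnrnpd), all with Ythdf2-KO higher, against 17.7% of all tested genes with Ythdf2-KO higher and 33.8% in either direction. DESeq2 called those 3 higher, against 11.8% of all tested genes, and edgeR without Ythdf2-KO replicate 1 called Hnrnpa3 and Hnrnpd higher, against 19.3% of all genes in that fit. Hnrnpa3 is in each of these tallies by the choice of members, so they are a description. Apart from it, the non-overlap and the DESeq2 calls rest on Hnrnpa2b1 and Hnrnpd.

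Compared per length of merged exons, and without reads assigned to pseudogene models, Hnrnpa3 stood near the bottom of the family. In CPM per kilobase (RPKM), Hnrnpab stood highest at 262 ± 11.9 in Ythdf2-KO and 265 ± 22.4 in WT cells (SD, n = 3 each). Hnrnpa1 followed at 155 ± 3.76 in Ythdf2-KO and 146 ± 5.43 in WT cells, and Hnrnpa2b1 at 151 ± 2.35 in Ythdf2-KO and 131.5 ± 7.95 in WT cells. Hnrnpa1 and Hnrnpa2b1 lay within their spread of each other in Ythdf2-KO cells. Hnrnpc at 90.1 ± 13.6 and Hnrnpa0 at 89.8 ± 2.93 RPKM in Ythdf2-KO cells (83.7 ± 9.21 and 82.3 ± 8.17 RPKM in WT cells) also lay within their spread of each other, and Hnrnpdl followed at 51.9 ± 2.81 in Ythdf2-KO and 46.5 ± 2.38 RPKM in WT cells.

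Per length of merged exons, Hnrnpa3 stood above Hnrnpd in Ythdf2-KO cells and below it in WT cells. In Ythdf2-KO cells Hnrnpa3 stood at 32.3 ± 1.98 RPKM and Hnrnpd at 24.2 ± 1.28 RPKM, while in WT cells Hnrnpa3 stood at 11.8 ± 0.809 RPKM and Hnrnpd at 20.3 ± 0.663 RPKM. Hnrnpa3 made up 3.82%, 3.94% and 3.53% of the summed RPKM of the 8 genes in Ythdf2-KO libraries, against 1.65%, 1.37% and 1.47% in WT libraries. This order depends on the length used: divided by the length of the coding transcript, Hnrnpa3 stood at 105 ± 6.44 RPKM in Ythdf2-KO and 38.3 ± 2.64 RPKM in WT cells. On that scale it was above Hnrnpd in both genotypes, which stood at 26.2 RPKM in Ythdf2-KO and 21.9 RPKM in WT cells. It was also above Hnrnpa0 (89.8 RPKM) and Hnrnpdl (90.9 RPKM) in Ythdf2-KO cells, and below both in WT cells (82.3 and 81.4 RPKM). These levels of Hnrnpa3 and Hnrnpa1 leave out reads assigned to their pseudogene models. With those reads added, and not divided by length, Hnrnpa3 stood at 1077 ± 75.1 CPM in Ythdf2-KO and 803 ± 59.9 CPM in WT cells. Hnrnpa2b1 stood at 997 CPM in Ythdf2-KO and 866 CPM in WT cells in that fit, so the place of Hnrnpa3 depends on these reads.

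Shared sequence touched the other members less. Hnrnpa1 had 20 pseudogene models, which held 13.8% to 14.4% of the combined counts in Ythdf2-KO and 14.7% to 15.5% in WT libraries, and 42.2% of its 100-base windows occur in another model. The largest, Gm10052, measured 45.7 ± 1.71 CPM in Ythdf2-KO and 45.5 ± 2.95 CPM in WT cells (SD, n = 3 each), and the summed log2 fold change of Hnrnpa1 was 0.07. For the coding transcripts of the other 6 members at most 4.28% of windows were shared. For a longer transcript of Hnrnpab it was at least 23.2%, with the same limit on the models searched. The similar models with the most counts were Gm5778 for Hnrnpa2b1, Gm11488 for Hnrnpdl and, in protein-coding genes, Phykpl for Hnrnpab and Calu for Hnrnpc, the last sharing 140 bases at 90% identity. Phykpl overlaps Hnrnpab and Gm17092 overlaps Hnrnpd on the other strand, and the microRNA gene Gm24574 overlaps the start of Hnrnpa3 on the same strand. The strand setting of the counting is not stated, so the counts of Hnrnpab and Hnrnpd may include reads of those genes.

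All 8 members carried m6A peaks in both genotypes, with 19 peaks in the Ythdf2-KO list (17428 peaks in 8686 genes) and 22 in the WT list (19236 peaks in 9427 genes). Each list stands for its genotype without replicates, and the value attached to a peak is the authors' own, read here as a p-value. All 19 peaks of the Ythdf2-KO list overlapped a WT peak by at least 1 base, and 20 of the 22 WT peaks overlapped a Ythdf2-KO peak. The exceptions were 2 WT peaks in Hnrnpa2b1 (chromosome 6, 51466540 to 51466630 and 51466121 to 51466270, minus strand), of 91 and 150 exonic bases. In Hnrnpd 1 Ythdf2-KO peak of 1645 bases covered what the WT list gives as 2 peaks.

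Every member had, in both lists, a peak with bases on both sides of the end of the coding sequence. Among tested protein-coding genes with an m6A peak whose WT level fell within that of the members (63.4 to 866 CPM), that held for 42.4% in the Ythdf2-KO list and 44% in the WT list. In Hnrnpa0 the peak that met this rule held, in both lists, only 1 base of coding sequence, against 416 bases of 3′ UTR. Of the peak bases that lie on the coding transcripts, 72.4% in the Ythdf2-KO list and 73.9% in the WT list were coding, while 19.7% in the Ythdf2-KO list and 19.9% in the WT list lay in 3′ UTRs. The peaks of Hnrnpa1, Hnrnpa2b1, Hnrnpd and Hnrnpc included ones with a deposited value of 0 in the Ythdf2-KO list, the strongest the list holds. In the WT list the same was true of Hnrnpa1, Hnrnpa2b1 and Hnrnpc, and not of Hnrnpd, whose peaks had 1e-289 and 7.9e-69.

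**Figure D3:**
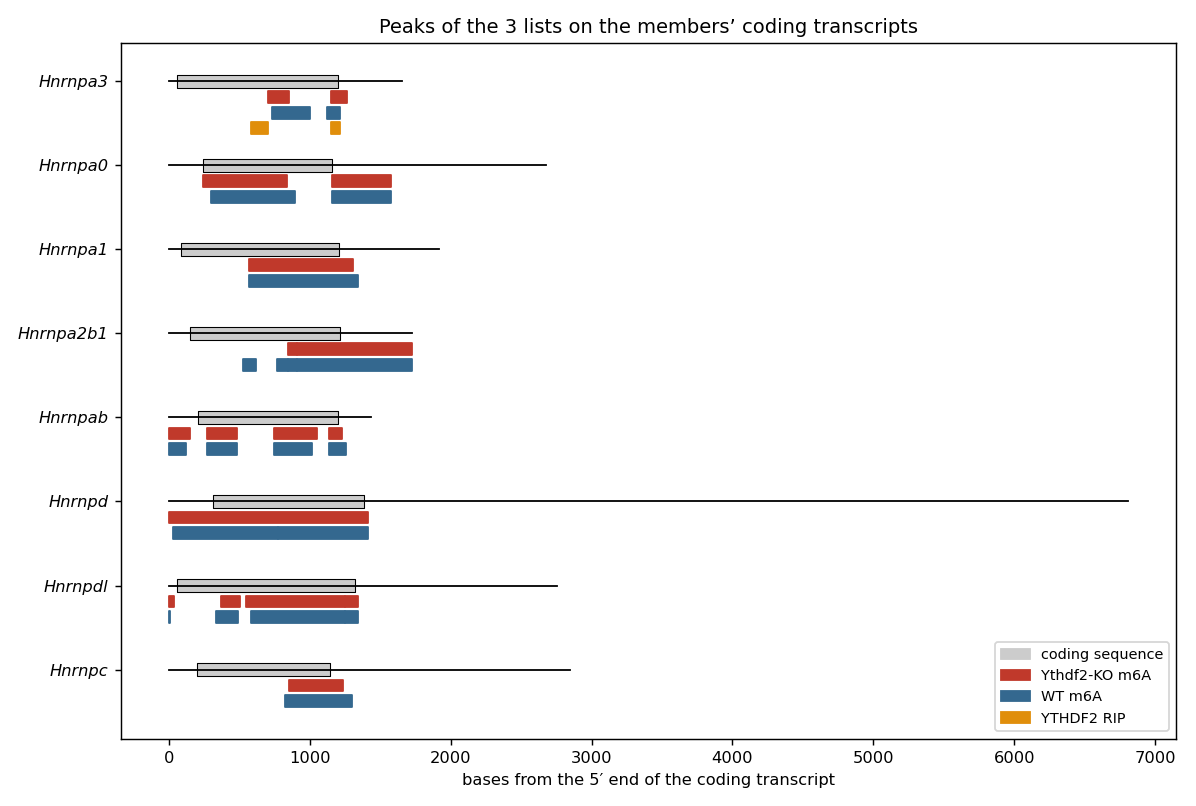
Peaks of the Ythdf2-KO m6A, WT m6A and YTHDF2 RIP lists (coloured bars under each line) along the coding transcript of each member, in bases from its 5′ end, with the coding sequence as a grey box. Each member has an m6A peak across the end of the coding sequence in both genotypes, in Hnrnpa0 by only 1 coding base. Hnrnpa3 alone has RIP peaks, and peak bases outside these transcripts are not drawn.

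The m6A peaks of Hnrnpa3 covered 6.71% of its merged exons in the Ythdf2-KO list and 8.38% in the WT list, the smallest share of the 8, and those of Hnrnpa0 37.8% in both lists, the largest. Over the coding transcripts the order was another one, with Hnrnpa3 at 16.1% in the Ythdf2-KO list and 21.9% in the WT list, Hnrnpc lowest at 13.7% in the Ythdf2-KO list and 16.8% in the WT list, and Hnrnpab (52.5% in the Ythdf2-KO list, 50.4% in the WT list) and Hnrnpa2b1 (50.9% in the Ythdf2-KO list, 61.1% in the WT list) highest. In Hnrnpa0 the peaks held 4 GGACT sites, an m6A context lacking from the Hnrnpa3 stretches above, and Hnrnpd and Hnrnpdl had 1 each. The following 29-base stretches show these sites in bases shared by both lists, read from the GENCODE M21 transcripts on the minus strand (GRCm38), with GGACT, searched on the sense strand, in capitals. They lie at chr13:58128196-58128224, chr13:58127242-58127270, chr13:58127197-58127225, chr13:58127022-58127050, chr5:99967320-99967348 and chr5:100038830-100038858, in the order given.
Hnrnpa0, site 1 (coding): cgggacgctgacGGACTgcgtggtggtgg
Hnrnpa0, site 2 (3′ UTR): ccccctgaaggtGGACTcggccccacaca
Hnrnpa0, site 3 (3′ UTR): acagtcattgatGGACTctatttttttat
Hnrnpa0, site 4 (3′ UTR): actttgttgtaaGGACTtgatacctggct
Hnrnpd, site 1 (coding): gaaagatctgaaGGACTacttttccaaat
Hnrnpdl, site 1 (coding): ccgccgggacccGGACTgcgcgccagcac

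Among 121-base windows of the coding transcripts of tested genes, 12.1% held GGACT. Many shared stretches were longer, with 537 and 417 bases in Hnrnpa0, so this share is not matched to them in length. The other 5 members had no GGACT in the bases of their coding transcripts shared by both lists, which says only that these letters are not there.

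YTHDF2 RIP peaks were found on Hnrnpa3 alone, 2 of the 23372 peaks of that list, and both ranked in its lower part. The first (chromosome 2, 75662078 to 75662662, plus strand, 121 exonic bases) had a deposited value of 0.00011 and ranked 21105. The second (75665241 to 75665391, 151 bases) had 6e-06 and ranked 17098. With a limit of 1e-05 on the deposited value the second remained. It lay wholly within the second m6A peak of both genotypes, whereas the first shared 1 base with the first Ythdf2-KO m6A peak and none with a WT peak. The m6A peaks themselves had deposited values of 5e-37 and 4e-33 in the Ythdf2-KO list and 5e-36 and 2e-13 in the WT list.

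A RIP peak on 1 of 8 members compares with 49.4% of the 3597 tested protein-coding genes within the members' range of WT levels, and with 56.3% of those among them with a WT m6A peak. The 7 members without one include Hnrnpa1, Hnrnpa2b1 and Hnrnpc, with m6A peaks of deposited value 0 in both lists. Of 29 other hnRNP genes, a list that also holds related RNA-binding protein genes, 14 had a RIP peak. Of 13 SR protein genes 4 had one, and of 12 genes of import, modification and partnership 6. Peaks on Hnrnpa3 share their sequence with its pseudogenes. The 121 bases of the first RIP peak occur letter for letter in 11 of the 37 pseudogene models, the 61 bases of the second on the coding transcript in 1 of them (Gm5641), and the shared bases of the first m6A peak in 4. In the lists, 5 of the 37 models carried an m6A peak of their own in Ythdf2-KO cells and 3 in WT cells, and 0 carried a RIP peak.

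Beyond the family, lists of genes of the same machinery were read from the same edgeR fit, which called 4.54% of all tested genes in either direction. The list of 29 other hnRNP genes also holds related RNA-binding protein genes, such as Msi2. Of its 29 genes, all tested, 0 were higher and 1 was lower, against 2.99% and 1.54% of all tested genes. In edgeR 7 reached an unadjusted p below 0.05, against 29.5% of all tested genes. DESeq2 called 2 higher and 4 lower, against 11.8% and 7.1%. The gene that edgeR called lower was Msi2, which encodes an RNA-binding regulator of translation and stem cells. It measured 25.4, 23.8 and 24.1 CPM in Ythdf2-KO cells, against 31.0, 33.4 and 31.8 CPM in WT cells (edgeR adjusted p = 0.0479 for a log2 fold change of -0.39, SE 0.08). The groups were apart in all libraries, and the median of the list was 0.01. Rbmx, which encodes a splicing regulator on the X chromosome, did not pass (adjusted p = 0.0503 in edgeR), with 34.1, 24.0 and 20.4 CPM in Ythdf2-KO cells, against 47.0, 45.9 and 45.4 CPM in WT cells, and a log2 fold change of -0.82 (SE 0.18). Testing without the filter on low counts ended the call of Msi2 (-0.39), as did leaving out any library other than Ythdf2-KO replicate 1, with log2 fold changes of Msi2 of -0.43 to -0.36 over all 6 such fits.

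Of 12 SR protein genes tested out of 13 (Srsf12 had no count), 1 was higher and 0 were lower, against 2.99% and 1.54% of all tested genes. In edgeR 5 reached an unadjusted p below 0.05, against 29.5% of all tested genes. DESeq2 called 2 higher and 1 lower, against 11.8% and 7.1%. The gene that edgeR called higher, Srsf4, encodes a serine- and arginine-rich splicing factor. It measured 68.8, 76.6 and 78.9 CPM in Ythdf2-KO cells, against 57.2, 53.8 and 56.9 CPM in WT cells. All Ythdf2-KO libraries were above all WT libraries (edgeR adjusted p = 0.0379 for a log2 fold change of 0.42, SE 0.08). Upper quartile factors ended the call, with 0.33, as did testing without the filter on low counts, with 0.42, and leaving out any library other than Ythdf2-KO replicate 1, with 0.38 to 0.48 over all 6 such fits. Gm12992, a noncoding model identical to 1447 bases of Srsf4, may share its reads. The list's median was -0.05.

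The 12 genes of nuclear import (Tnpo1, Tnpo2, Tnpo3), arginine methylation (Prmt1, Prmt5, Carm1), microRNA processing (Drosha, Dgcr8), kinases of splicing factors (Clk1, Srpk1, Srpk2) and the partner Elavl1 gave 0 higher and 0 lower by edgeR, against 2.99% and 1.54% of all tested genes. Of these 12 genes, 3 reached an unadjusted p below 0.05 in edgeR (29.5% of all tested genes), and DESeq2 called 1 higher (11.8% of all tested genes). Their median was 0.14, with 10 of 12 above 0. Without Ythdf2-KO replicate 1, edgeR called 5 other hnRNP genes higher and 7 lower, 2 SR protein genes higher and 5 lower, and 4 of the 12 higher, against 19.3% higher and 16.1% lower of all genes in that fit.

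**Figure D4:**
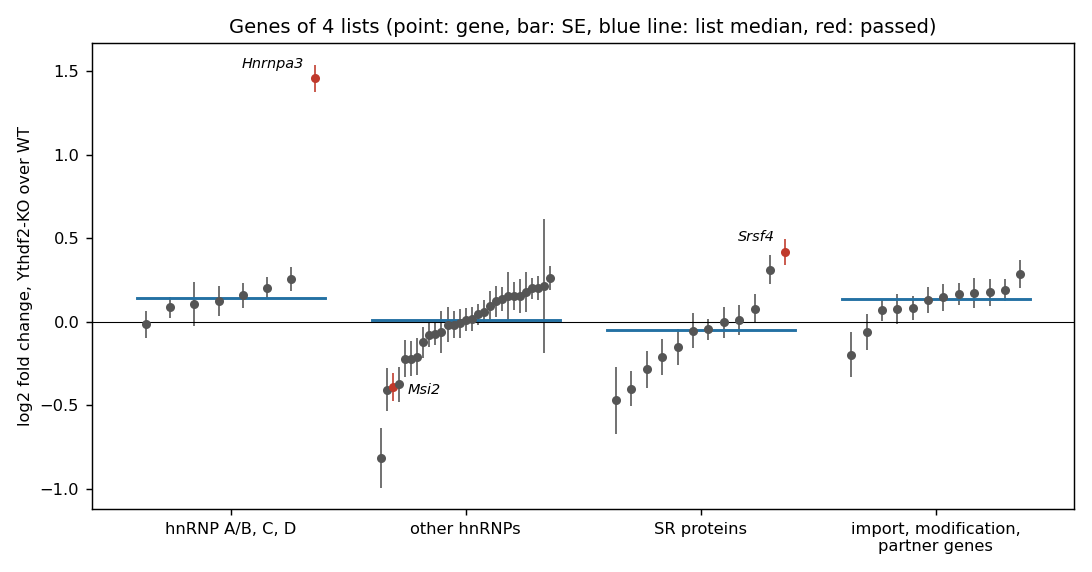
Log2 fold change of Ythdf2-KO over WT (vertical axis) for the tested genes of 4 lists, ordered within each list, with SE bars, the list median as a blue line, and genes that passed the edgeR test in red. Hnrnpa3 stands at 1.46, and the other genes of the 4 lists lie between -0.82 and 0.42.

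The genes whose pattern over the 6 input libraries was most like that of Hnrnpa3 were found among 10413 other genes with a mean of at least 10 CPM, by the root mean square difference in log2 CPM centred on the WT mean. The closest was Gdf11, a secreted ligand of the TGF-beta family, with a difference of 0.069, at 25.9, 29.9 and 26.2 CPM in Ythdf2-KO cells, against 10.9, 10.4 and 9.64 CPM in WT cells. Next came Sdf2l1 (0.151), of the endoplasmic reticulum, and the matrix protein gene Thbs2 (0.198). The growth factor receptor gene Fgfr3 had a difference of 0.244. Gdf11 had 7 RIP peaks and 3 m6A peaks in each genotype, Thbs2 had 5 RIP peaks, and Sdf2l1 and Fgfr3 had none in the RIP list. On the chromosome itself, 7 genes within 500 kb of Hnrnpa3 were tested. EdgeR called 0 of them, against 4.54% of all tested genes, and 1 reached an unadjusted p below 0.05, against 29.5%. DESeq2 called 1, where it called 11.8% of all tested genes higher and 7.1% lower.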

How the data were processed

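The authors deposited raw read counts per gene for 6 input libraries and 3 peak lists whose value, called only a score per the file headers, was read as a p-value from its values alone. Per the submitters' processing notes, HISAT2, HOMER, ChIPseeker and mm10 were used, in roles not stated. The sources used here do not name the counter, its strand setting and treatment of multiply mapped reads, the annotation or the peak caller. Per-library IP and RIP signal was not analysed here.

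Counts were tested with edgeR 4.0.16 (TMM, filterByExpr, no covariate, Benjamini-Hochberg at 0.05) in R 4.3.3, with DESeq2 1.42.0 as an alternative, and the procedure was tested on simulated data. CPM use TMM-scaled totals, and the SE is the log2 fold change divided by the square root of F. Adjusted p-values run over all 18969 genes. Nothing in the labels marks replicates as separate cultures, and p-values then cover only how these libraries vary, which may be technical. No pair of libraries agreed within sampling noise (chi-square per degree of freedom at least 9.01). By this measure Ythdf2-KO replicate 1 was nearer to WT replicates 1, 2 and 3 (29.9, 47.5 and 47.7) than to Ythdf2-KO replicates 2 and 3 (72.3 and 72.1).

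Positions, transcripts and sequences came from GENCODE M21 (GRCm38, the assembly of mm10). The coding transcript is the one with the longest coding sequence. Similar gene models were found with megablast of blastn 2.17.0 (90% identity, 100 bases), a step added after seeing the data. Peaks overlapped when at least 1 exonic base was shared.

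The members and lists were chosen with earlier results of these data known. The text names all members, genes of other lists that passed the test (at most 6 per direction), the 5 genes most like Hnrnpa3 (1 of which is not reported here), at most 1 similar model per member, and Ythdf2. Epcam, Krt18, Dcn, Rbmx, Srsf12, Gm12992, Gm17092 and Gm24574 fall outside this rule and were named after their values were seen.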

Additional observations from a re-analysis of the deposited data

How the results depend on the processing

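The counts of calls depended on the processing. Genes higher and lower (568 and 293) were 348 higher with upper quartile factors, 70 and 41 with no filter on low counts, 2244 and 1346 with DESeq2, and 45 and 26 with the replicate block, in which replicate numbers are a covariate. Leaving out 1 library gave 0 to 3782 higher and 0 to 3144 lower, the upper ends without Ythdf2-KO replicate 1. Members called higher (1) were 3 with DESeq2 and 0 to 2 with 1 library left out. Other hnRNP genes (0 higher, 1 lower) were 2 and 4 with DESeq2, with 0 lower with no filter or the block, and 0 to 5 higher and 0 to 7 lower with 1 library left out. SR protein genes (1 higher, 0 lower) were 2 and 1 with DESeq2, with 0 higher with upper quartile factors, no filter or the block, and 0 to 2 higher and 0 to 5 lower with 1 library left out. Import, modification and partner genes (0 higher) were 1 with DESeq2 and 0 to 4 with 1 library left out. The block also ended the calls of Msi2 (-0.39) and Srsf4 (0.42). The causes were not tested.

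The log2 fold change of Hnrnpa3 was 1.37 (upper quartile factors) to 1.5 (without Ythdf2-KO replicate 3) and 0.42 with its pseudogene models summed, an alternative chosen after seeing the data. RIP peaks of the members fell to 1 of 2 at a deposited value of at most 1e-05. With the length of the coding transcript, WT levels were 38.3 RPKM for Hnrnpa3, 239.7 for Hnrnpa1, 501 for Hnrnpa2b1, 513 for Hnrnpab, 21.9 for Hnrnpd, 81.4 for Hnrnpdl and 127 for Hnrnpc, by construction of the shorter length. Deviations of libraries with the same number correlated at 0.05, 0.11 and 0.05, so the numbers were not taken to pair the samples. Peaks carry no replicate error, and IP depth is unknown.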
